A study of Caenorhabditis elegans with 2 samples.

Results

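Sex determination and dosage compensation genes of the nematode Caenorhabditis elegans were examined in chromatin immunoprecipitation sequencing (ChIP-seq) region lists for the nuclear hormone receptor NHR-28. The members were the switch gene xol-1 and 9 genes whose products trigger or form the dosage compensation complex (sdc-1, sdc-2, sdc-3, dpy-21, dpy-26, dpy-27, dpy-28, dpy-30 and mix-1), that is 10 of 19973 annotated protein-coding genes. They were taken by name, with every region whose summit lay in the gene or within 6000 bp of it, and 3 of them lie on X and 7 on autosomes. These windows held 55 of the 20876 candidate regions that the authors called on pooled reads, 82 of the 30000 regions of replicate 1 and 71 of the 30000 regions of replicate 2. The members and the window had been picked with rank and signal values in view, so those values are a description and carry no test.

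The data come from 1 group of 2 biological replicates, each a separate biosample of whole L3 larvae of mixed sex. All worms were of strain OP317, which carries the mutation unc-119(ed3) on chromosome III and the insertion wgIs317, through which NHR-28 is expressed with an eGFP tag. Every sample carried the transgene, and the control named in the labels was not analysed here, so whether any signal depends on NHR-28 was not tested. Whole larvae mix all tissues and both sexes, and the lists do not separate them. Region signal is the authors' own value, with no stated scale, and was read only within 1 list, where rank 1 is the strongest region. The final set, kept by the authors on the irreproducible discovery rate (IDR), held 162 peaks, and 306 of the pooled regions had a q value of 0.05 or less. The median q value of the pooled list was 0.872, since it includes background by design.

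Dosage compensation in this nematode lowers transcription from both X chromosomes of XX animals, which are hermaphrodites, toward the output of the single X of XO males. XOL-1 is made at a high level in early XO embryos, where it prevents the SDC proteins from acting. In XX embryos xol-1 is kept low, and SDC-2, with SDC-3 and SDC-1, represses the male gene her-1 and brings a condensin-like complex to X. That complex holds the SMC proteins DPY-27 and MIX-1, the kleisin DPY-26 and the HEAT-repeat subunit DPY-28, and it works with DPY-30 and the histone demethylase DPY-21. It loads at recruitment elements on X, and a short sequence motif rich in G and C is known from the strong ones.

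Sequences are shown for 3 regions, from the WBcel235 reference of RefSeq (the same assembly as ce11), on the plus strand, to show what lies under the signal. The first is the strongest region of all windows, upstream of xol-1 (chrX:8036252-8036551). Its capitals mark CGCAGGG or its reverse complement, the core letters of the X recruitment motif.
xol-1 upstream peak: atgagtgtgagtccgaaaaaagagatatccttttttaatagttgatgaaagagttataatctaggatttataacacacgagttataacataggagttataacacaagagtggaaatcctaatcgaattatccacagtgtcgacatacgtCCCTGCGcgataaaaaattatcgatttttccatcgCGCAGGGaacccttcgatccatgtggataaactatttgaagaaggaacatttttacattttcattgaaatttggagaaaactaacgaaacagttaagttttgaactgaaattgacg
The second is the other strong region, at the start of tasp-1 and upstream of dpy-28 (chrIII:10759116-10759306). It is given up to the last base before tasp-1, and its capitals mark the summit with 10 bases either side.
tasp-1 and dpy-28 upstream peak: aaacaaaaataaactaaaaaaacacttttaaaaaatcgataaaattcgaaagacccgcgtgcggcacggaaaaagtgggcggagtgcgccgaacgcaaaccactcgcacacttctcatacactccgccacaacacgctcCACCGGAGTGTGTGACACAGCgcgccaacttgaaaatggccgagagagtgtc
The third is the region in the sdc-2 promoter (chrX:11522230-11522529), the one promoter-window region of a member that overlapped a region of each replicate. Its capitals mark the 28 bases (chrX:11522334-11522361) that the pooled region and both replicate regions covered together.
sdc-2 promoter region: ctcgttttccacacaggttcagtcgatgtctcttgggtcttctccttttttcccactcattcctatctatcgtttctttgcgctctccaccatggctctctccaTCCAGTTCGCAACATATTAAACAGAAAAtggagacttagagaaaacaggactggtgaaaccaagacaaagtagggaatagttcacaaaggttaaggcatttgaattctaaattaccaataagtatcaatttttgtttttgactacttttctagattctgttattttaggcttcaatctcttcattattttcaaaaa

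Strong signal was found in 2 of the 10 windows, those of xol-1 and dpy-28, and in both it lay several kilobases upstream of the member. No final peak lay in the promoter window of any member (from 1000 bp before to 500 bp past any annotated transcript start), where 0.596% of all protein-coding genes had one. Within the gene and 6000 bp either side, 2 of 10 members and 2.73% of all protein-coding genes had a final peak (3.59% of genes on X and 2.59% on autosomes). The background counts mostly shorter windows, since the median gene length was 7916 bp for the members and 2027 bp for all genes. Any pooled region at all was present in the windows of 10 of 10 members, against 92.8% of all genes. A region among the strongest 5000 of the pooled list was present for 5 members (xol-1, sdc-2, dpy-21, dpy-28 and dpy-30), against 49.9% of all genes. Both counts are near their backgrounds. The other 53 regions had q values from 0.383 to 0.96 and signals from 10.42 to 20.42. The largest q value in the final set was 0.0175.

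**Figure D1:**
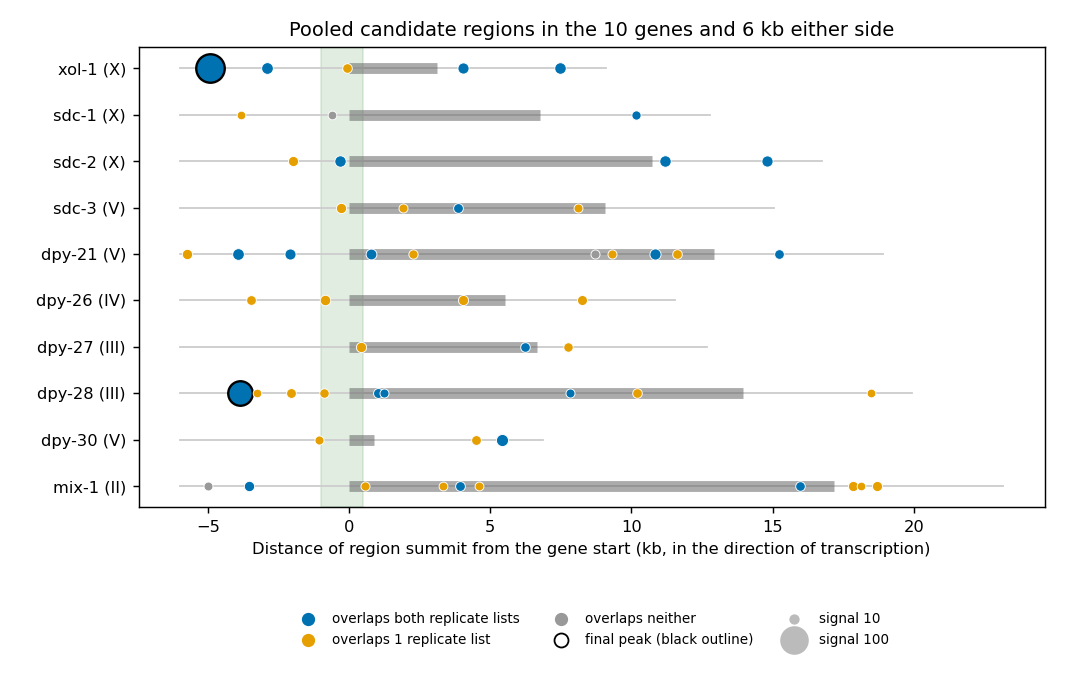
Pooled candidate regions by distance of the summit from the gene start (kb, along transcription) for each gene, with its chromosome in brackets. Grey bars are genes, thin lines the 6000 bp flanks, the green band the promoter window for a start at 0, dot area the signal and dot colour the number of replicate lists overlapped; the 2 outlined final peaks, at -4912 bp of xol-1 and -3866 bp of dpy-28, lie outside the band.

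The switch gene xol-1 (WBGene00006962, chromosome X, 8041313 to 8044409, plus strand) had the strongest region of all the windows. This final peak spanned chrX:8036231-8036570, with its summit between genes and 4912 bp upstream of the xol-1 start, which was the nearest protein-coding start. Its signal was 113.3 in the pooled list, 46.28 in replicate 1 and 71.96 in replicate 2, and it ranked 9, 17 and 8 in these lists. Both replicates thus placed it among their strongest regions. Final peaks were kept on IDR, a measure of agreement between replicates, so these close ranks are no separate support. An annotated tRNA gene (WBGene00022939, minus strand) lay 284 bp from the summit, on the side of xol-1. On the far side, the protein-coding gene C34D10.1 ended 4787 bp from the summit.

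At the xol-1 start itself the lists differed. The pooled list had a region with its summit 86 bp upstream (chrX:8041057-8041396), with a signal of 12.88, rank 10960 and q = 0.879. Replicate 2 had the same interval at rank 919 with a signal of 16.35 (q = 0.126), and replicate 1 had no region in the promoter window. The promoter region was thus matched in replicate 2 alone. The remaining 3 regions of the window, 2902 bp upstream of the start and 4024 and 7461 bp downstream of it, had pooled ranks of 1821, 3098 and 2210. Those downstream had C18A11.4 as the nearest protein-coding start, and the one at rank 3098 lay 181 bp upstream of it. All 3 were between genes and overlapped regions of both replicates, at ranks from 1886 to 9194 in replicate 1 and from 15097 to 17366 in replicate 2. No region had its summit inside xol-1.

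The peak upstream of xol-1 held the recruitment letters near its summit in 2 copies on opposite strands, centred 3 bp and 38 bp from it. These were the only copies in the xol-1 window. To show how alike the copies are, each is given with 10 bases either side and read along the strand on which CGCAGGG (in capitals) occurs, beside the copies in the 3 stronger X peaks that had any. Start and end on chromosome X and the pooled rank of the peak stand in each name.
xol-1 upstream, chrX:8036391-8036417, minus strand, rank 9: ttttttatcgCGCAGGGacgtatgtcg
xol-1 upstream, chrX:8036426-8036452, plus strand, rank 9: ttttccatcgCGCAGGGaacccttcga
chrX:11094115-11094141, minus strand, rank 2: ttttatatcgCGCAGGGagcttatgca
chrX:11094216-11094242, minus strand, rank 2: gaaccattcgCGCAGGGacacctcact
chrX:2997113-2997139, minus strand, rank 5: aaatttatcgCGCAGGGaggaagtagc
chrX:2997288-2997314, minus strand, rank 5: gatcgtatcgCGCAGGGaggaagtatg
chrX:806665-806691, plus strand, rank 7: gcgattatcgCGCAGGGgtgtttgttg
chrX:806741-806767, plus strand, rank 7: aaccgatacgCGCAGGGaaaaaaaaat
In all 8 copies the capitals follow the letters cg, as they do in 13 of the 18 copies wholly inside final peaks on X, these 8 included. Both xol-1 copies share 12 letters in a row, and 5 of the 8 copies hold that same run. The 2 xol-1 copies define the run and are counted in the 5.

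The share of regions holding the core letters was highest among the final peaks of X. They lay in 13 of 35 final peaks on X (37.1%) and in 4 of 127 final peaks on autosomes (3.15%), on either strand. Among all pooled regions they lay in 35 of 3842 on X (0.911%) and in 92 of 17034 on autosomes (0.54%). On whole chromosomes they were about equally frequent, with 17 matches per megabase on X and 16.1 on autosomes. Of the 55 regions at the members, the xol-1 peak alone held them. Elsewhere in the windows of the members there was 1 match in that of sdc-2 and 1 in that of dpy-30, and neither was under a pooled region. A match describes letters and does not show binding of the complex, and no data on the complex were analysed here.

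**Figure D2:**
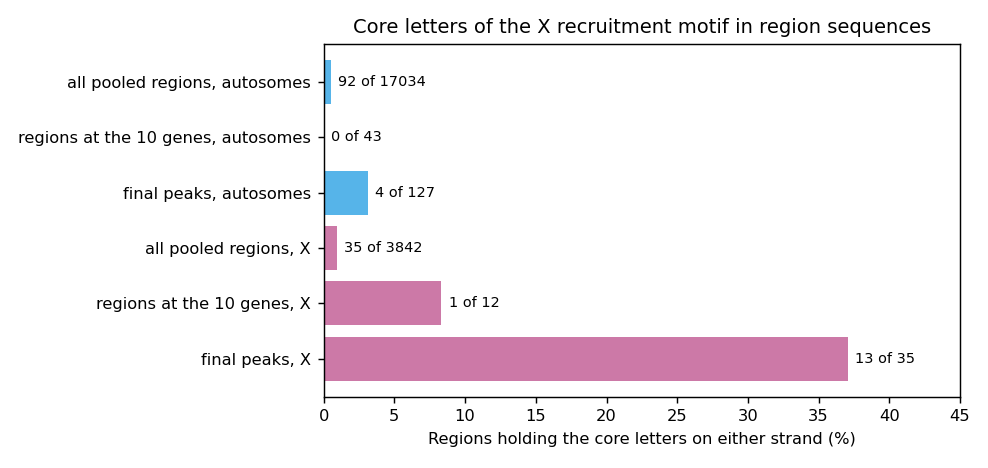
Share of regions (%) that hold the core letters on either strand, for pooled regions, regions at the 10 genes and final peaks, on autosomes (blue) and X (pink), with counts beside the bars. The final peaks on X stand at 37.1%, and each other set is at 8.33% or below.

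The SDC genes, which link the switch to the complex, had no final peak and differed among themselves. The product of sdc-2 (WBGene00004746, chromosome X, 11522707 to 11533450, plus strand) is the XX-specific trigger of assembly on X. Its promoter region (chrX:11522209-11522548) had its summit 328 bp upstream of the start and a pooled signal of 18.14, at rank 2446 with q = 0.559. It overlapped a replicate 1 region of signal 7.621 (rank 4746) and a replicate 2 region of signal 10.45 (rank 8179). This was the highest-ranked promoter-window region of any member in the pooled list and in replicate 1, while in replicate 2 those of xol-1 (rank 919), sdc-3 (2003) and dpy-26 (2123) ranked higher. A promoter-window region overlapping both replicates was present for 1 of 10 members, against 14.6% of all genes. The call asks each replicate region to overlap the pooled region, taken separately, and the 28 bases printed above are those covered in every list. It was lost when the overlap had to cover at least 0.5 of the region.

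Beyond the promoter, the sdc-2 window held a region of signal 18.31 (rank 2340) in the 5-prime UTR of the next gene downstream, C35C5.8. A further region of signal 17.46 (rank 2985) lay 188 bp upstream of gcp-2.2, and one of signal 14.31 (rank 7369) lay 1978 bp upstream of sdc-2. The first and second overlapped both replicates, while the last was matched in replicate 2 only, at rank 1140. No pooled summit fell inside the sdc-2 gene.

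The zinc finger protein gene sdc-1 (WBGene00004745, chromosome X, 16275763 to 16282534, plus strand) had the weakest window of all. Its 3 regions had signals of 11.9, 10.57 and 10.57 and ranks of 14268, 20028 and 20051, near the lower end of the pooled list at 10.41. The last of these lay 608 bp upstream of the start and overlapped no region of either replicate. The gene sdc-3 (WBGene00004747, chromosome V, 15039148 to 15048207, minus strand), which encodes another zinc finger protein, had 4 regions. The strongest was in its promoter, 294 bp upstream of the start, with a signal of 14.72 (rank 6575, q = 0.792). Replicate 2 ranked the matching region 2003, and replicate 1 had none overlapping it. The other 3 lay in a coding exon and introns of sdc-3, and 1 of them, in the coding exon, overlapped both replicates.

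Of the condensin subunits, dpy-28 (WBGene00001087, chromosome III, 10763131 to 10777076, plus strand) had the second final peak. It spanned chrIII:10759095-10759434, with its summit 3866 bp upstream of dpy-28 and 42 bp upstream of tasp-1. The gene tasp-1 lies on the same strand, is 3715 bp long and ends 109 bases before dpy-28 begins. The summit was also 743 bp upstream of the start of K01G5.10, on the other strand, so the peak was in the promoter windows of both neighbours and not in that of dpy-28. Its signal was 83.89 in the pooled list, 34.11 in replicate 1 and 48.53 in replicate 2, at ranks of 17, 27 and 21. As at xol-1, the replicates ranked the peak closely, and here too the IDR selection asks for such agreement. Whether tasp-1 and dpy-28 are transcribed together was not examined.

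The other 8 regions of the dpy-28 window had signals from 10.42 to 13.6. The region in its promoter window had its summit 882 bp upstream of the start, in an intron of tasp-1, with a signal of 12.5 (rank 12163). It was matched in replicate 2 at rank 22487 and not in replicate 1. A region in a coding exon 1024 bp into dpy-28 ranked 8982 and overlapped both replicates. It overlapped a weaker neighbour at rank 16352, and both were matched to the same replicate regions, so they do not count as independent.

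The remaining condensin genes had no region among the strongest 5000. The gene dpy-27 (WBGene00001086, chromosome III, 3813018 to 3819679, minus strand), for the SMC4-like subunit that is particular to dosage compensation, had its strongest region in a coding exon 403 bp downstream of the start. Its pooled signal was 14.74 (rank 6531), with a replicate 1 match at rank 13703 and none in replicate 2. The region in the 3-prime UTR of dpy-27 was weaker in the pooled list, with a signal of 12.88 (rank 10932), and yet overlapped both replicates at ranks of 6999 and 5754. Its overlap with replicate 1 was at the edge: the summit lay 6545 bp from the start there, 6245 bp in the pooled list and 6256 bp in replicate 2. The gene dpy-26 (WBGene00001085, chromosome IV, 12445801 to 12451335, minus strand), for the kleisin, was the one member without any region found in both replicates. Its strongest, of signal 15.39 (rank 5445), lay 857 bp upstream in the 3-prime UTR of spe-44 and was matched in replicate 2 at rank 2123. Replicate 1 had another region in the dpy-26 promoter window, 284 bp upstream of the start, at rank 6549.

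The SMC2 gene mix-1 (WBGene00003367, chromosome II, 10824246 to 10841424, plus strand), whose product also serves in the mitotic condensins, had the longest gene and 10 regions. None was in its promoter window in the pooled list or in either replicate list. The strongest, of signal 14.9 (rank 6225), lay 341 bp upstream of ech-4, a neighbour upstream. A region in a coding exon of mix-1 lay near the snoRNA gene M106.6 and ranked 11150, with replicate ranks of 25932 and 24363. The 10 signals ran from 10.49 to 14.9, and 3 of the regions overlapped both replicates.

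The genes for the associated proteins were also without a pooled region in their promoter windows. The gene dpy-21 (WBGene00001080, chromosome V, 17936282 to 17949193, minus strand), for the demethylase that acts on histone H4, had 10 regions, of which 6 lay inside the gene. Those found in both replicates numbered 5. The strongest, of signal 19.0 (rank 1876), was 3940 bp upstream of dpy-21 and 1184 bp past the start of Y59A8B.24. A region in an intron 766 bp past the dpy-21 start had a signal of 16.28 (rank 4226) and was ranked 2388 by replicate 1 and 14071 by replicate 2. Replicates therefore differed widely in how they ranked the regions of dpy-21, as the 2 ranks of the strongest one, 21309 and 5046, also show. This is not particular to dpy-21, since replicate signals had a Spearman rho of 0.12 over all 7625 pooled regions found in both.

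The gene dpy-30 (WBGene00001088, chromosome V, 12191519 to 12192385, plus strand) encodes a small protein that is also part of histone H3 methyltransferase complexes. Its window held the strongest region after the final peaks, with a signal of 20.42 (rank 1252, q = 0.383) and replicate ranks of 649 and 4598. This region lay 5421 bp downstream of the dpy-30 start, in an intron of ogdh-2 and 995 bp upstream of the start of ZK836.3. The nearest pooled region upstream of dpy-30 had its summit 1054 bp from the start, just outside the promoter window, with a signal of 11.4 (rank 16212).

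**Figure D3:**
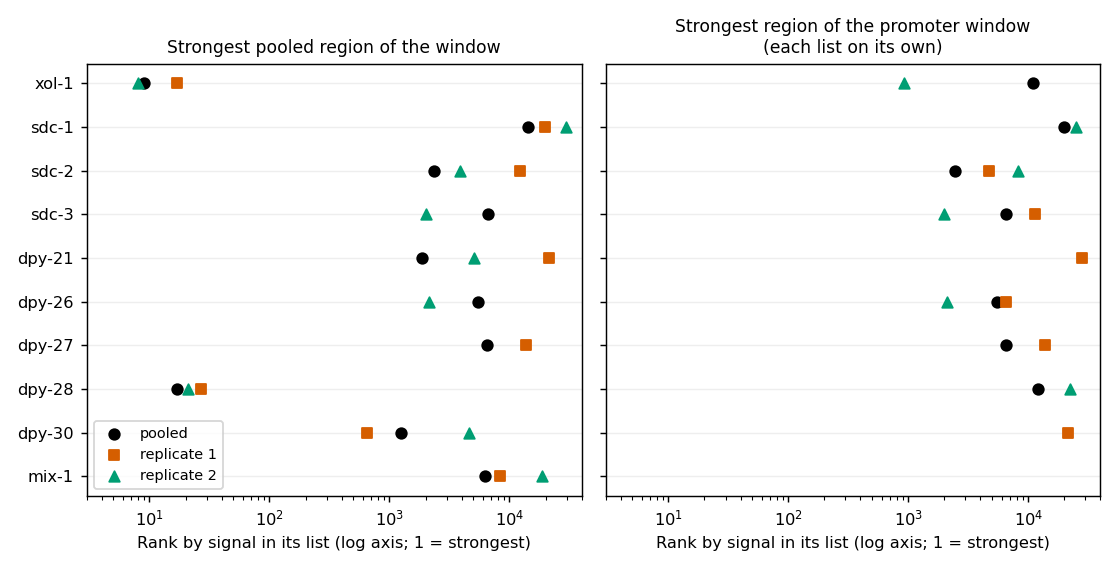
Rank by signal (log axis, 1 is the strongest) in the pooled, replicate 1 and replicate 2 lists, for the strongest pooled region of each window with its replicate matches (left) and for the strongest region of each promoter window taken in each list on its own (right); a missing symbol means no region. The windows of xol-1 and dpy-28 stand at ranks of 8 to 27 on the left, and no promoter window has a rank below 919 on the right.

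Taken over all members, pooled regions in promoter windows were present for 7 of 10 genes, against 34.2% of all protein-coding genes (35.3% on X and 34.1% on autosomes). Their q values ran from 0.559 to 0.959 and their signals from 10.57 to 18.14, and 1 of the 7, at sdc-2, ranked among the strongest 5000, where 10.6% of all genes had such a region. In the replicate lists taken singly, 6 members had a promoter-window region in replicate 1 (45.1% of all genes) and 6 in replicate 2 (44.9%). The members were not the same in both: xol-1, sdc-1 and dpy-28 had one in replicate 2 and not in replicate 1, and dpy-21, dpy-27 and dpy-30 the reverse. Both replicates had one for sdc-2, sdc-3 and dpy-26. The share of all genes with one in a single replicate was not computed, so this difference is not read as a trait of the members.

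The density of regions gave no stable order between X-linked and autosomal members. The windows of the 3 X-linked genes held 12 regions, or 2.12 per 10 kb, against 2.17 on the whole X chromosome. Those of the 7 autosomal genes held 43 regions, or 2.86 per 10 kb, against 2.06 on all autosomes. In the replicate lists taken singly the order turned, with 3.71 on X and 3.33 on autosomes in replicate 2 and 4.24 and 3.86 in replicate 1. Rank was more uneven. On X, 7 of the 12 regions were among the strongest 5000 (58.3%, against 25.5% of all X regions), 4 of them at xol-1, 3 at sdc-2 and none at sdc-1. On autosomes 6 of 43 were (14%, against 23.6%), 4 of them at dpy-21. Those on X at ranks 2210 and 3098 (xol-1 window) and 2340 and 2985 (sdc-2 window) had another gene as the nearest protein-coding start. The X-linked windows had a median signal of 17.4 and the autosomal ones of 13.05, beside 13.23 and 13.02 for all pooled regions on those chromosomes. With 3 genes on X, and sdc-1 at the other end of the range, these values describe the single genes and not a class.

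**Figure D4:**
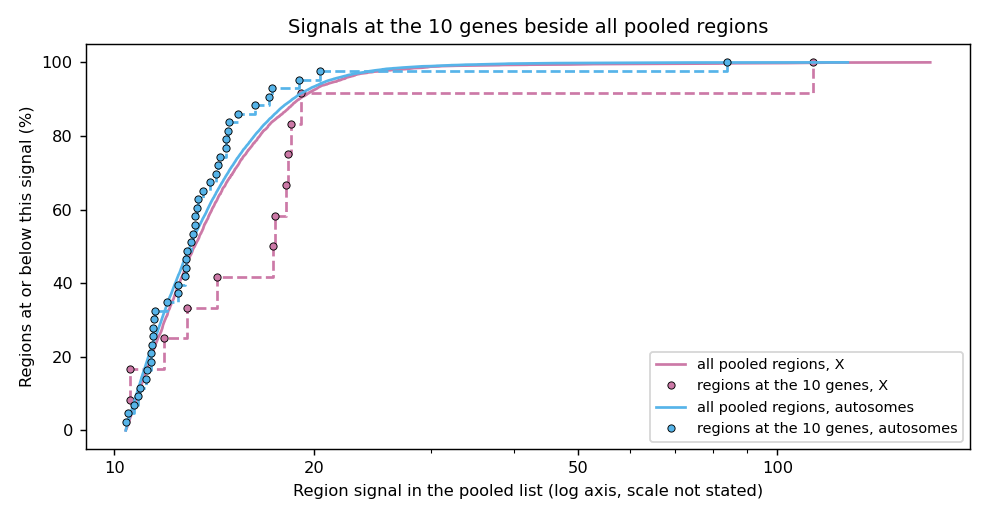
Cumulative share of regions (%) by pooled signal (log axis), for all pooled regions (lines) and for regions at the 10 genes (dots), on X (pink) and autosomes (blue). The autosomal dots lie near their line around its median of 13.02 and above it from 15.39 to 20.42. They end with the dpy-28 peak at 83.89, and the X dots lie to the right of their line between 12.88 and 18.49.

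The share of regions found in both replicates was close to that of the whole list, though not on X alone. Of the 55 regions, 23 (41.8%) overlapped a region of each replicate, against 36.5% of all pooled regions. On X this was 8 of 12 (66.7%, against 37.4% of all X regions) and on autosomes 15 of 43 (34.9%, against 36.3%). The 8 were 4 at xol-1, 3 at sdc-2 and 1 at sdc-1 (33.3% of its regions), so the X value describes 3 single genes. A further 11 overlapped replicate 1 alone, 18 replicate 2 alone and 3 neither (5.45%). Over all 20876 pooled regions these counts were 3908, 8359 and 984 (4.71%), so the lean to replicate 2 was that of the whole list. Across the 23, which came from 22 distinct replicate 1 regions, replicate signals had a Spearman rho of 0.52, and without the 2 final peaks rho was 0.37 (n = 21). Over all 7625 such regions rho was 0.12. The points share the 2 libraries and were selected on pooled signal, so these are descriptions across regions. In return, 45 of the 82 replicate 1 regions and 27 of the 71 replicate 2 regions in the windows overlapped no pooled region, the strongest of them at rank 1557 in replicate 1, 2936 bp upstream of dpy-30. The share without a pooled region was not computed over the whole replicate lists, so these counts show nothing particular to the members.

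By position, 20 of the 55 summits lay upstream of the member, 21 in its gene and 14 downstream. The nearest protein-coding start belonged to the member for 22 and to another gene for 33. By annotation, 19 summits were between genes, 11 in introns of the member, 9 in its coding exons and 1 in its 3-prime UTR, and the rest were in other genes. The GC content of the regions had a median of 33.2%, beside 33.5% for all pooled regions. The letters AGGTCA, the short site that many nuclear receptors recognise, were in 2 of the 55 (3.64%) against 7.91% of all pooled regions. These 2 were the dpy-28 upstream peak and a region near smz-1 in the dpy-26 window. The letters GCGTCTC, part of a motif seen with many worm factors, were in 1 of the 55 (1.82%), the dpy-30 region in ogdh-2, against 3.08% of all. Among all 162 final peaks, AGGTCA lay in 14 (8.64%), GCGTCTC in 24 (14.8%) and CGCAGGG in 17 (10.5%). The 3 motifs searched were taken on both strands. At the edge of the windows, the outermost region inside lay 5747 bp from dpy-21 (signal 14.86) and the first outside lay 6461 bp from xol-1 (signal 16.95).

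The rest of the pathway had no final peak at its promoters either. Of 28 further genes listed, 26 were annotated under the names used, and sex-2 and sea-3 were not found. A pooled region in the promoter window was present for 7 of the 26, where 34.2% of all genes had one. Among the genes that set xol-1 activity by counting X chromosomes, 4 of 5 had such a region. That of sex-1, a nuclear hormone receptor gene on X that represses xol-1, had its summit 27 bp downstream of a start, with a signal of 16.56 (rank 3907) and a match in replicate 2 only (rank 2971). That of ceh-39, a homeobox gene on X that also represses xol-1, was 23 bp upstream, with a signal of 16.69 (rank 3738) and a match in replicate 2 only (rank 7577). These were the 2 pathway genes with a promoter-window region among the strongest 5000. The one promoter-window region found in both replicates was a weak one at sea-2, an autosomal signal gene, at rank 18088.

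Downstream in sex determination, 3 of 13 genes had a promoter-window region (fem-1, fog-1 and dmd-3), none among the strongest 5000, and her-1, the direct target of the SDC proteins, had none. Among 8 other dosage compensation and condensin genes, capg-1 included, none had one. A single final peak lay within 6000 bp of the 26 genes, that is for 1 of 26, where 2.73% of all genes had one. It was in the window of kle-2, a condensin II gene named after its value was seen, at 8418 bp from the kle-2 start, with a signal of 38.67 and the collagen gene col-90 as the nearest start.

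The promoters most like that of sdc-2 in the 3 lists were found by the distance between log2 ranks (pooled, replicate 1 and replicate 2) over 2759 other genes with a promoter-window region in all 3. They were C53C11.2 on X (distance 0.12, ranks 2290, 4652 and 8596), npp-24 on chromosome II (0.28, ranks 2080, 5194 and 8581) and Y46E12BL.2 on chromosome II (0.28, ranks 2970, 4856 and 8114). The likeness is over 2 libraries and their pool.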

How the data were processed

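Per the deposited file list, the authors called ChIP-seq regions separately on replicate 1, replicate 2 and the pool of both, used a control, and kept a final set by IDR. Which aligner, caller and IDR threshold they used is not given in the sources used here. The deposited signal and the deposited −log10 of the q value of each region were used as they stand. All lists were of 1 width each (340 bp pooled and replicate 2, 350 bp replicate 1), with the summit in the middle. The lists give no read counts, so the depth of each library is unknown and no interval resting on it is given.

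Gene models for the ce11 lists came from Ensembl release 115 (assembly WBcel235). Every region end lay within the reference chromosomes. The ce10 lists were not used. Regions were ranked by signal within a list, a region belonged to a window if its summit lay in it, and a replicate region matched a pooled one by at least 1 bp of overlap, the strongest being kept. Coordinates count from base 1. Counting was tested on simulated regions with Python 3.11.15, numpy 2.4.6 and scipy 1.17.1.

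The members, lists and motifs were chosen with earlier results of these data known. Named were all 10 members, pathway genes with a promoter-window region among the strongest 5000 or a final peak there, the genes nearest to regions given in full, and the 3 genes most alike in rank. Members and all genes are set side by side without a test. Alternatives were other windows, flanks, thresholds, overlap rules and each replicate left out.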

Additional observations from a re-analysis of the deposited data

How the results depend on the processing

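The 10 of 10 members with a pooled region in the gene and its flanks became 9 with flanks of 1000 bp, 5 among the strongest 5000 regions and 2 at a q value of 0.05 or less. The 2 members with a final peak became 0 with flanks of 3000 bp and 0 with flanks of 1000 bp, since both peaks lie farther upstream. The 7 members with a promoter-window region became 3 in a promoter window narrowed to 500 bp before and 200 bp past the start, 1 among the strongest 5000 regions and 0 at a q value of 0.05 or less. The 1 member with a promoter-window region in all lists became 0 with an overlap of at least 0.5 of the region and 0 with summits within 100 bp. Regions per 10 kb at X-linked members, 2.12, became 1.24 among the strongest 5000 regions and 0.18 at a q value of 0.05 or less, and at autosomal members 2.86 became 0.40 and 0.07. With each replicate left out in turn, that is, the list of the other replicate alone, the counts were 6 to 6 for promoter windows and 10 to 10 for flanks. The densities were 3.71 to 4.24 at X-linked and 3.33 to 3.86 at autosomal members, from longer lists. No paired analysis was possible because the series holds 1 group and no result comes from a test. With no read counts, the depth that limits weak regions is unknown.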

Other observations

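The 2 copies of the core letters upstream of xol-1 share a longer run, ATCGCGCAGGGA, of 12 letters. This run was read from those copies after they had been seen and then searched on both strands of the whole genome. It occurred 10 times on X and 1 time on all autosomes together. All 10 occurrences on X lay under pooled regions and 9 lay under final peaks, and the autosomal one lay under no pooled region. The 9 were spread over 7 of the 35 final peaks on X (20%), and no other member window held the run. The 2 xol-1 copies that define the run are counted in the 10 and in the 9, and their peak in the 7. The core letters alone occurred 301 times on X, 40 times under a pooled region and 19 times under a final peak. On autosomes they occurred 1329 times, 91 times under a pooled region and 4 times under a final peak. A match counted as under a region if any of its bases overlapped it, while the 18 copies given earlier lay wholly inside final peaks on X. Occurrences on 1 peak are not independent, and ChIP-seq of other factors or of the dosage compensation complex was not analysed here.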
